A study of Mus musculus with 8 samples.

Results

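The 48 genes described here are interferon-stimulated genes and sensors of foreign nucleic acid, chosen by gene symbol from the RNA-Seq counts of WT and *Aire* mutant medullary thymic epithelial cells (mTECs). All 48 were among the 24052 gene symbols listed. The list was drawn up with results of these libraries in view, both of E6 against WT and of adhesion, so the numbers of members that differed describe these libraries and support nothing beyond them. Of the 48, 44 had enough counts for testing, among 11672 mRNAs tested. The other 4, *Mx1*, *Mx2*, *Rsad2* and *Cmpk2*, had between 0 and 14 counts per library.

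Type I and type III interferons are secreted proteins that bind receptors on the cell surface, and the receptors activate the kinases JAK1 and TYK2. These kinases phosphorylate STAT proteins, among them STAT2, which join IRF9 to form the complex ISGF3. This complex binds a DNA element called the interferon-stimulated response element (ISRE) and turns on the interferon-stimulated genes, whereas interferon gamma acts through the gamma-activated site (GAS). The sensors RIG-I (*Ddx58*) and MDA5 (*Ifih1*) detect viral RNA in the cytoplasm, and many sensors and signalling proteins are themselves interferon-stimulated. Thymic epithelial cells are known to carry tonic interferon signals without infection.

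The WT cells were mTEC 3.10, a mouse mTEC line, and the mutant, called E6, was a single clone obtained from that line by Crispr-Cas9 editing of *Aire* exon 3. The labels give the genotype of E6 as Aire +/-, while the methods describe indels in both alleles. Each cell type was sequenced before adhesion, with the mTECs alone, and after mTEC-thymocyte adhesion, which was a co-culture of 12 h with 50 thymocytes per mTEC. There were 2 libraries per condition and 8 in all, all from cells at passage 2. The labelled culture time was 24 h in 3 libraries, namely WT replicate 2 after adhesion, E6 replicate 1 before adhesion and E6 replicate 1 after adhesion, and 12 h elsewhere. For E6 before adhesion the treatment text in the labels speaks of thymocytes, whereas titles and source names say that there were none, and the latter were followed. Nothing states that the replicates came from separate cultures, so the p-values measure the spread between these samples, which may be technical.

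*Aire* itself had 0 counts in the 4 libraries before adhesion, and 0 and 3 counts after adhesion in WT as in E6, so these libraries do not check the mutation. The epithelial markers *Epcam*, *Krt8*, *Krt18* and *Cdh1* had at least 7366, 19420, 9363 and 11775 counts in every library. Others of the 17 epithelial and mTEC markers were low: *Krt5* had 3 to 21 counts per library, *Cd80* 0 to 4 and *Cldn3* 0 to 2. *Cd40* and *Tnfrsf11a* had 0 counts in WT and in E6 before adhesion. *Krt19* had 22 to 44 counts in WT and 3 to 12 in E6. The libraries held 13506610 to 20145154 counts on genes. Levels are given as CPM (read counts normalised to library size with edgeR's TMM factors). A level of 3 counts, used below as the floor, was 0.149 to 0.222 CPM before that scaling, and such floors cover counting error only. Replicate 1 of WT after adhesion stood apart, with 66.7% of its alignments on genes against 75.7% to 78.8% in the others, and a slope of -0.45 in log2 counts per 10% of GC content against -0.02 to 0.14. Markers of thymocytes came with adhesion: the 15 used here summed to 0.464 ± 0.0308 CPM before and 13.8 ± 2.15 CPM after it in WT, and to 0.585 ± 0.448 and 95.2 ± 13.6 CPM in E6 (SD, n = 2 each). Of the 12 tested, 10 were DE and higher in E6 than in WT after adhesion. The 15 markers of macrophages, dendritic cells and B cells summed to 64.3 ± 4.77 CPM before and 56.2 ± 12.4 CPM after adhesion in WT, and to 53.2 ± 8.64 and 62.5 ± 0.089 CPM in E6 (SD, n = 2 each). Most of that sum was *Csf1r*, which had 969 and 894 counts before and 552 and 1167 after adhesion in WT, and 783 and 779 before and 678 and 679 after it in E6. The myeloid markers *Lyz2* and *Emr1* were at 0 counts in all libraries before adhesion, but others on the list were not. Before adhesion *Cd68* had 33 and 23 counts in WT and 32 and 54 in E6. *Cd74* had 1 and 0 in WT and 32 and 43 in E6, and *Cd79a* 0 and 1 against 4 and 2. *Itgam* and *Itgax* had 0 counts in WT before adhesion, and 2 and 1, and 2 and 0, in E6. After adhesion *Lyz2* had 12 and 24 counts in WT and 109 and 88 in E6, and *Emr1* had 4 and 5 in WT and 37 and 21 in E6. Of the 7 fibroblast markers, the summed level after adhesion was 5.96 and 4.84 CPM in WT and 16.0 and 11.6 CPM in E6, of which *Thy1*, also on the thymocyte list, made 2.34 and 0.823 CPM in WT and 13.3 and 9.86 CPM in E6. The part of these other cells in the values after adhesion was not tested.

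The promoters of 35 members, from 250 bases before to 50 bases after the start site, were given by RefSeq on GRCm38.p6. The ISRE core GAAANNGAAA, read as TTTCNNTTTC on the other strand, was present in 19 of the 35 (54.3%), against 3.99% of all 27025 genes with a promoter in the table and 3.6% of the tested genes. The GAS letters TTCNNNGAA, the same on both strands, were present in 8 (22.9%), against 9.55% of all genes. Both motifs stood in 5 members, and 2 GAS matches overlapped an ISRE match. The first letter of the ISRE cores lay from 222 bases before the start to 33 bases after it, counting the start site as 1. These are matches of letters, not sites shown to be bound. The following stretches of 60 bases, 5′ to 3′ in the direction of the gene, all lie before the start site. They carry the match in some of the members that have it. Cores before the start site in *Stat2*, *Ifit3*, *Rsad2*, *Trim30a*, *Gbp2*, *Gbp3* and *Irgm1* are not shown. Among these is *Stat2*, where E6 lay below WT within each condition, so the stretches shown do not tell how the match goes with levels. Capitals mark the ISRE core and GAS matches, which can overlap.
Oas1a (chr5:120907526-120907585, minus strand): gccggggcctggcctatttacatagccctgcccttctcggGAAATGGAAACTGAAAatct
Oas1g (chr5:120887614-120887673, minus strand): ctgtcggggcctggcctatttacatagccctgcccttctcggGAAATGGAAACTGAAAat
Oas1c (chr5:120812591-120812650, minus strand): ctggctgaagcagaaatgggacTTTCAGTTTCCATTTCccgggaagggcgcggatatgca
Oas3 (chr5:120777700-120777759, minus strand): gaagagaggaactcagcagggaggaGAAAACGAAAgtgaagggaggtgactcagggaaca
Ifit1 (chr19:34640769-34640828, plus strand): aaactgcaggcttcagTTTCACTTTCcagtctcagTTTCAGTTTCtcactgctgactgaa
Isg15 (chr4:156200856-156200915, minus strand): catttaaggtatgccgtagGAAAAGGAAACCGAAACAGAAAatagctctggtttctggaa
Bst2 (chr8:71537565-71537624, minus strand): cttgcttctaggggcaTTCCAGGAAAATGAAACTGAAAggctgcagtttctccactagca
Igtp (chr11:58199496-58199555, plus strand): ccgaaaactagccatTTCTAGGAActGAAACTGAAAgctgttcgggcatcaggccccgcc
The *Oas1a* and *Oas1g* stretches hold the same doubled core in the same surroundings, and *Isg15* holds 3 cores that overlap. In *Bst2* the GAS match runs into the first ISRE core, and in *Igtp* it stands just before the core. The promoters of *Irf7*, *Irf9* and *Oasl1* held no ISRE core in this window. No promoter was in the table for *Oas1b*, *Oas2*, *Usp18*, *Mx1*, *Mx2*, *Dhx58*, *Rtp4*, *Parp9*, *Parp14*, *Ifi27l2a*, *Zbp1*, *Pyhin1* and *Tor3a*. Among members tested, those with the core had a median log2 FC of E6 over WT of 1.05 before and 1.37 after adhesion (n = 18). Those without the core had 0.51 and 0.56 (n = 15). For GAS it was the other way, with 0.07 and 0.33 in members with the match (n = 8). Members without GAS had 0.78 and 1.20 (n = 25). For after over before adhesion, the medians with and without the core were 0.69 and 0.65 in WT, and 0.64 and 0.55 in E6. These medians are given as a description only.

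Of the 44 members tested, 9 passed as higher in clone E6 than in WT mTECs before adhesion and 15 after it, among them OAS enzymes, *Irf7*, *Rtp4*, *Pyhin1* and *Bst2*. The log2 FC of E6 over WT was above 0 in 35 of the 44 before and 40 after adhesion, as it was in 48.7% and 48.1% of all tested mRNAs. DE mRNAs are those with a Benjamini-Hochberg FDR under 0.05 by edgeR's quasi-likelihood test over all 11672 mRNAs and an FC of at least 1.5. Before adhesion all 9 DE members were higher in the clone, where 5.01% of all tested mRNAs were DE, 2.45% higher and 2.56% lower. After adhesion 15 were DE, all higher, where the share of all mRNAs was 8.91%, with 4.85% higher and 4.06% lower. Averaged over both conditions 22 were DE and higher and 1, *Ifit2*, was lower, against 5.22% and 6.13% of all mRNAs, which make 11.3%. Since these contrasts were known when the list was made, nothing is read from those shares. The median log2 FC of the members was 0.85 before and 1.22 after adhesion, and that of all tested mRNAs was -0.00 and -0.02. Of the members, 8 were DE both before and after adhesion, namely *Bst2*, *Irf7*, *Oas1c*, *Oas1g*, *Oas2*, *Oas3*, *Pyhin1* and *Rtp4*. *Ifi27l2a* was DE before adhesion only, and *Igtp*, *Irf9*, *Oas1a*, *Oasl1*, *Parp14*, *Parp9* and *Uba7* after it only, which by itself does not show that their differences changed. Both E6 libraries lay above both WT libraries in 30 members before adhesion and 33 after it, where this was so for 35.4% and 26.8% of all tested mRNAs. In these bulk samples, fewer cells that express a gene and less RNA per cell cannot be told apart.

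**Figure D1:**
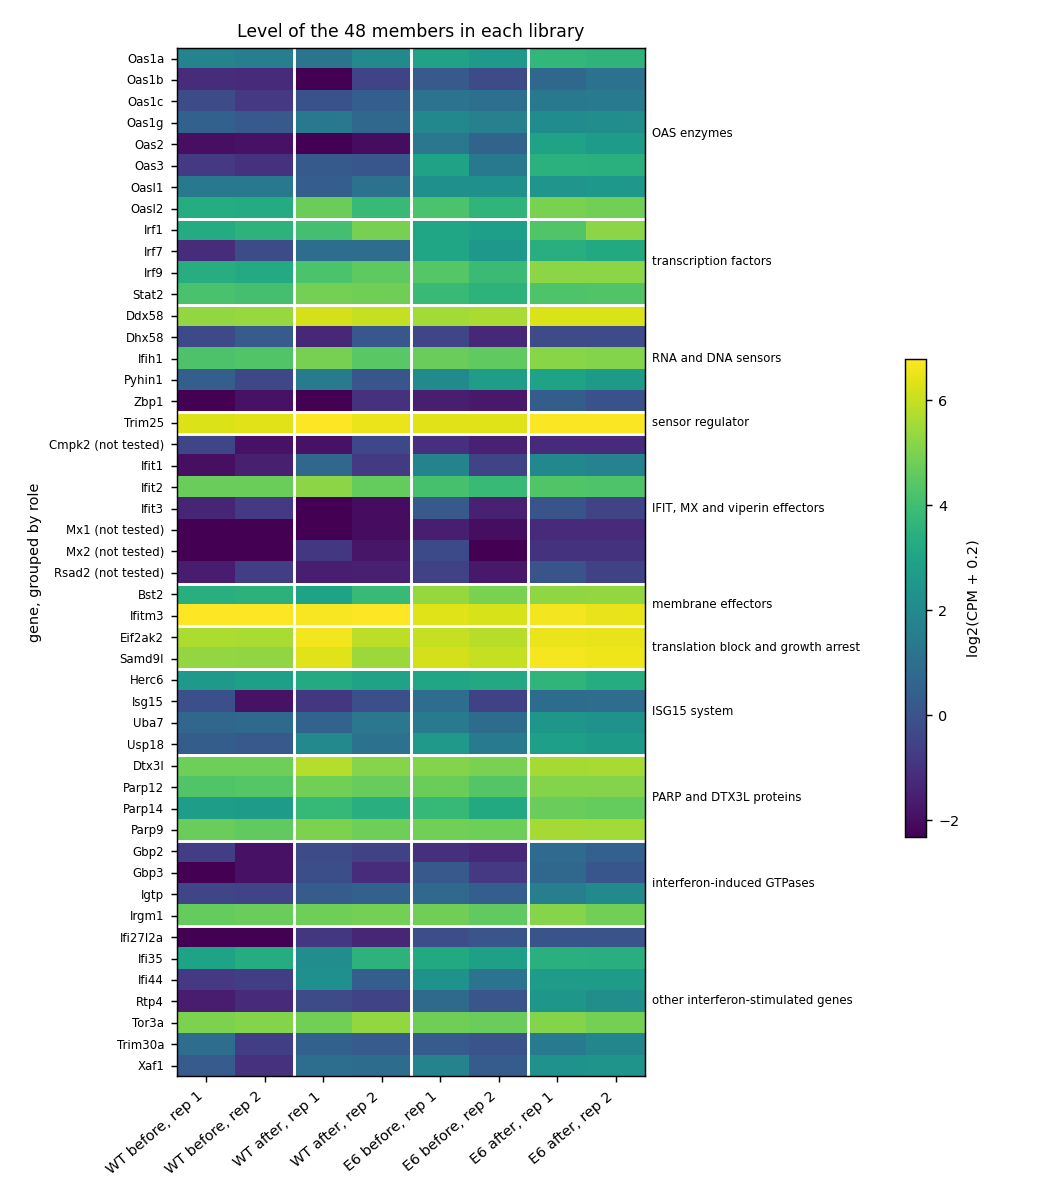
Level of the 48 members, in rows grouped by role, in the 8 libraries, in columns by condition and replicate. Colour is log2(CPM + 0.2), from dark (low) to yellow (high); most OAS rows are brighter in the 4 E6 columns, *Trim25* and *Ifitm3* are bright throughout, and *Mx1* and *Mx2* are dark throughout.

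The numbers of DE members depended on which libraries were in the fit, and so did the share of all tested mRNAs that were DE. Before adhesion the number was 0 without replicate 1 and 1 without replicate 2 of WT before adhesion, where 0.310% and 0.326% of all mRNAs were DE. It was 2 and 3 without replicates 1 and 2 of E6 before adhesion (0.578% and 0.385% of all mRNAs). Without replicates 1 and 2 of E6 after adhesion it was 2 in both fits (1.45% and 1.47%), and without either WT library after adhesion 23 (12.7% of all mRNAs in both fits, against 5.01% with 8 libraries). In each of these fits both moved the same way from the fit to 8 libraries.

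After adhesion the number was 7 without replicate 1 or 2 of WT before adhesion (2.87% and 2.84% of all mRNAs), 8 without either E6 library before adhesion (3.82% and 3.79%) and 1 without either E6 library after adhesion (0.361% and 0.227%). It was 29 without replicate 1 and 24 without replicate 2 of WT after adhesion, where 15.6% and 37.7% of all mRNAs were DE, against 8.91% with 8 libraries. The fit with fewer DE members of these last was thus the one with the larger share of all mRNAs. Averaged over both conditions it was 12 without replicate 1 or 2 of WT before adhesion (5.61% and 5.98%), 15 without replicate 1 of E6 before adhesion (6.84%), and 14 and 13 without replicates 1 and 2 of E6 after adhesion (5.86% and 5.82%). Fitted to the 4 libraries compared alone, 20 members were DE before and 0 after adhesion, as were 13.1% and 0% of all mRNAs, and such a fit takes its spread from those libraries only. With culture time as a term, chosen after seeing the data, 4 members were DE before adhesion and 13 after it (2.96% and 7.51% of all mRNAs).

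**Figure D2:**
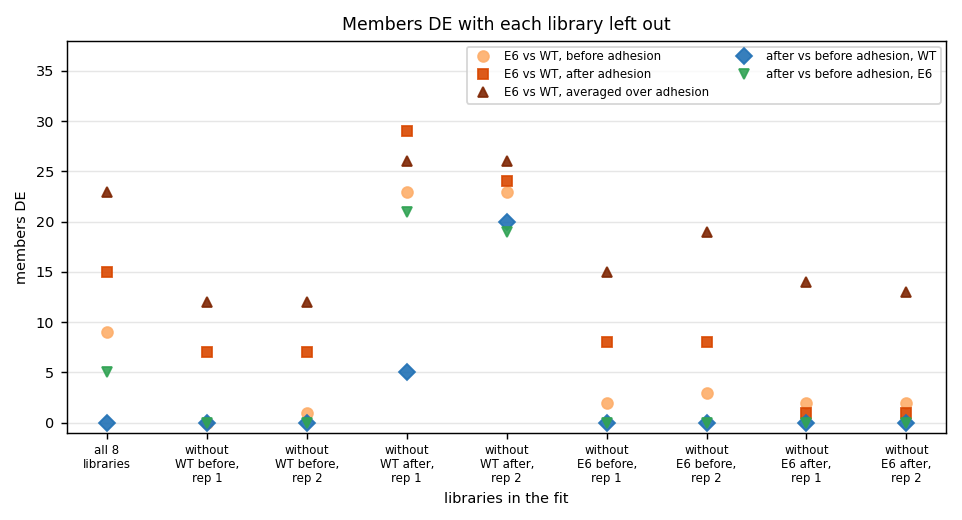
Number of members DE (vertical axis) in the fit to all 8 libraries and in the fits that each left out 1 library (horizontal axis), for 5 comparisons shown by colour and shape; symbols can cover one another at 0. Leaving out either WT library after adhesion gave the highest numbers, up to 29.

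Active OAS enzymes sense double-stranded RNA and then make 2′-5′-linked oligoadenylates, and the OAS-like proteins share their fold. Which of the 8 OAS members have this activity was not examined. Of the 8, 4 were DE and higher in E6 before adhesion, 6 after it and 7 on average. All 8 lie on chromosome 5, whose 754 tested mRNAs had a median log2 FC of 0.34 before and 0.32 after adhesion in E6 over WT. *Oas2* had 1 and 1 counts in WT before adhesion, 0 and 1 in WT after it, 33 and 24 in E6 before it and 124 and 103 in E6 after it. WT was at or under the floor in every library and E6 above it in every library. The ratio of CPM was 25.9 (exact 95% counting interval 6.84 to 219) before and 236 (41.9 to 9360) after adhesion, and the FDRs were 0.0128 and 0.0022.

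*Oas3*, which makes long oligoadenylates, had 0.364 and 0.295 CPM in WT before adhesion and 0.993 and 0.871 CPM after it. In E6 it had 7.49 and 2.36 CPM before adhesion and 11.2 and 10.8 CPM after it. All E6 libraries lay above all WT libraries, although the replicates of E6 before adhesion were far apart. Its log2 FC was 3.83 (SE 0.66, FDR 0.0209) before and 3.56 (SE 0.53, FDR 0.0115) after adhesion.

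*Oas1a* had 3.16 and 2.80 CPM in WT before adhesion, 2.06 and 3.92 CPM in WT after it, 7.49 and 5.73 CPM in E6 before it and 12.9 and 11.9 CPM in E6 after it. It was DE after adhesion (log2 FC 2.02, SE 0.30, FDR 0.0111) and at 1.14 (SE 0.31, FDR 0.078) before it, and the groups did not overlap in either. *Oas1g* went from 1.21 and 0.958 CPM in WT to 3.61 and 2.95 CPM in E6 before adhesion, and from 2.34 and 1.5 to 4.07 and 4.36 CPM after it (FDR 0.0353 and 0.0475). The longest transcripts of these neighbouring genes share much sequence: 40.9% of the 100-base windows of *Oas1a* occur unchanged in *Oas1g*, and the division of reads between them is uncertain. *Oas1c* had 0.668 and 0.369 CPM in WT and 2.01 and 1.82 CPM in E6 before adhesion (log2 FC 1.84, SE 0.38, FDR 0.0384), and 0.780 and 1.11 against 2.39 and 2.57 CPM after it. All 4 E6 libraries were above all 4 WT libraries. *Oasl1*, which restrains *Irf7* translation, was higher in E6 after adhesion, at 5.21 and 5.56 CPM against 1.14 and 1.94 CPM in WT (FDR 0.0125), and had 4.58 and 4.61 CPM against 2.37 and 2.36 CPM before it. *Oas1b* had 4 and 3 counts in WT and 14 and 12 in E6 before adhesion, and 0 and 11 against 25 and 32 after it. Its E6 libraries were all above its WT libraries, and it was DE only in the average over conditions (log2 FC 2.10, SE 0.58, FDR 0.042). *Oasl2*, with 128 to 378 counts in WT and 229 to 514 in E6, was DE in no contrast, with a log2 FC of 0.67 before and 0.56 after adhesion. Per length, *Oas1a* and *Oasl2* were the most abundant of the 8 in WT before adhesion, at 1.58 and 1.5 CPM per kb.

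Of the 4 transcription factors, *Irf7* was DE and higher in E6 in both conditions and *Irf9* after adhesion. *Irf7*, which drives interferon alpha genes and is itself induced by ISGF3, had 0.243 and 0.663 CPM in WT before adhesion and 1.77 and 1.69 CPM after it. In E6 it had 8.25 and 5.62 CPM before adhesion and 10.3 and 8.96 CPM after it. Every E6 library was above every WT library, and the log2 FC was 3.96 (SE 0.41, FDR 0.00467) before and 2.47 (SE 0.32, FDR 0.00768) after adhesion. *Irf9*, the DNA-binding subunit of ISGF3, had 10.1 and 9.36 CPM in WT and 20.9 and 14.8 CPM in E6 before adhesion. After adhesion it had 18.4 and 22.6 CPM in WT and 36.4 and 36.7 CPM in E6, with a log2 FC of 0.83 (SE 0.19, FDR 0.0392). Before adhesion its log2 FC was 0.87 (SE 0.20, FDR 0.052). *Irf9* shares 123 exon bases with *Rnf31* on the same strand.

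*Stat2*, a subunit of ISGF3, had 17.9 and 16.8 CPM in WT and 13.8 and 11.8 CPM in E6 before adhesion, and 29.1 and 27.7 against 19.2 and 19.8 CPM after it. E6 lay below WT within each condition, but the log2 FC of -0.49 averaged over conditions (SE 0.10, FDR 0.0144) was under the FC limit. *Stat2* lies on chromosome 10, whose tested mRNAs had a median log2 FC of -0.37 in that contrast. *Irf1*, an activator of interferon gamma targets, did not differ between cell types beyond its spread (log2 FC -0.52, SE 0.37, FDR 0.5 before adhesion).

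Among the sensors *Pyhin1*, a member of the DNA-binding PYHIN family, was the one that was DE between cell types. It had 1.15 and 0.590 CPM in WT and 3.88 and 6.53 CPM in E6 before adhesion, and 2.55 and 0.871 against 7.60 and 6.09 CPM after it. The groups did not overlap in either condition, and the FDRs were 0.0442 and 0.0451. In its longest transcript 17.9% of the 100-base windows also occur in another gene, *Ifi214*. The RNA helicases *Ddx58* and *Ifih1* had log2 FCs of 0.24 (SE 0.12, FDR 0.317) and 0.36 (SE 0.17, FDR 0.3) before adhesion and 0.16 and 0.43 after it. *Dhx58*, which encodes LGP2, a helicase that regulates those sensors, had 3 to 19 counts per library, and *Zbp1*, a sensor of Z-form nucleic acid, 0 to 18. *Trim25*, the ubiquitin ligase that acts on RIG-I, had a log2 FC of 0.01 (SE 0.12, FDR 0.99) before and 0.10 (SE 0.12, FDR 0.594) after adhesion.

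**Figure D3:**
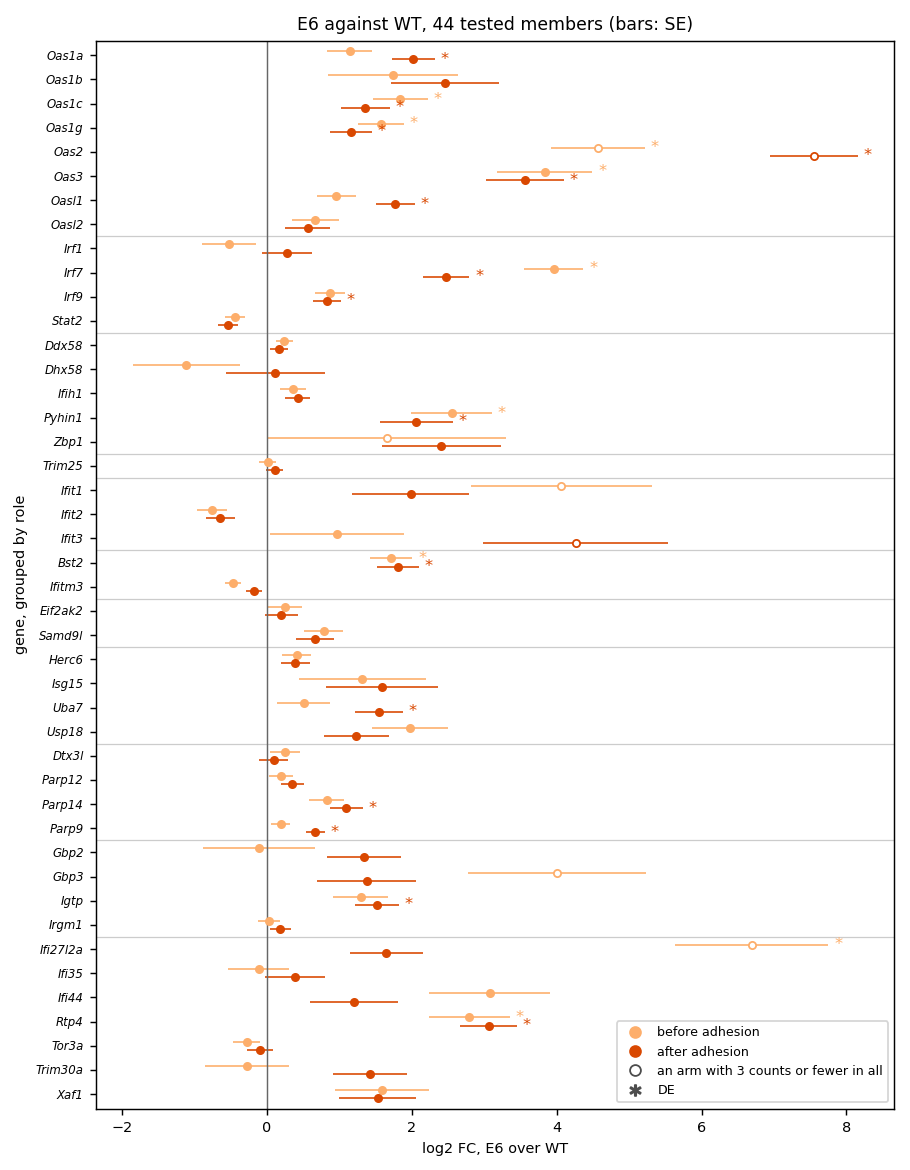
Log2 FC of E6 over WT (horizontal axis) for the 44 tested members (vertical axis, grouped by role), before adhesion (light orange) and after it (dark orange), with bars of 1 SE; stars mark DE and open circles an arm with 3 counts or fewer in all. The largest values are those of *Oas2*, *Ifi27l2a*, *Ifit1*, *Ifit3* and *Gbp3*, all with an open circle, while *Oas3* and *Irf7* are large with filled circles.

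*Bst2* encodes tetherin, which holds budding virus at the cell surface. It had 10.3 and 11.4 CPM in WT and 40.2 and 30.7 CPM in E6 before adhesion, and 7.52 and 14.4 against 38.4 and 39.1 CPM after it. E6 was above WT in every library, with a log2 FC of 1.71 (SE 0.29, FDR 0.0202) before and 1.80 (SE 0.29, FDR 0.014) after adhesion. *Ifitm3*, which blocks virus entry at endosomes, had the highest level per length of the 48, 161 CPM per kb in WT before adhesion. It stood at 110 and 108 CPM in WT and 81.9 and 75.4 CPM in E6 before adhesion, and its averaged log2 FC was -0.33 (SE 0.08, FDR 0.0259), under the FC limit.

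The IFIT proteins bind viral RNA, and 3 of them were tested. *Ifit1* had 1 and 2 counts in WT and 46 and 10 in E6 before adhesion, and 20 and 8 against 61 and 52 after it. E6 was above WT in each condition, but E6 replicate 2 before adhesion lay under WT replicate 1 after it, and the gene was DE only on average (log2 FC 3.03, SE 0.74, FDR 0.0279). The ratio before adhesion was 16.9 (exact 95% counting interval 5.51 to 84.6). *Ifit2* was at 26.2 and 26.5 CPM in WT against 17.2 and 13.9 CPM in E6 before adhesion, and at 36.3 and 24.7 against 19.6 and 19.3 CPM after it. All 4 E6 libraries were below all 4 WT libraries, and the averaged log2 FC was -0.70 (SE 0.15, FDR 0.0157). *Ifit3* had 0 and 1 counts in WT after adhesion and 14 and 9 in E6, a ratio of 23.9 (exact 95% counting interval 3.88 to 985), and was not DE (FDR 0.076). Part of its sequence, 31.7% of the 100-base windows, is shared with *Ifit3b*. The dynamin-like GTPase *Mx1* had 0 to 4 counts per library and *Mx2* 0 to 9.

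ISG15 is a ubiquitin-like protein attached to other proteins, with UBA7 as its activating enzyme, HERC6 as its ligase and USP18 as the protease that removes it. *Uba7* was higher in E6 after adhesion, at 5.51 and 4.96 CPM against 1.28 and 2.23 CPM in WT (log2 FC 1.54, SE 0.33, FDR 0.0303). Before adhesion it had 1.40 and 1.55 CPM in WT and 2.57 and 1.66 CPM in E6 (FDR 0.501). *Uba7* shares 233 exon bases with *Gm20661* on the same strand. *Usp18* had 1.09 and 0.958 CPM in WT and 5.83 and 2.41 CPM in E6 before adhesion, and 3.69 and 1.94 against 6.88 and 6.09 CPM after it. It was DE only in the average (log2 FC 1.6, SE 0.34, FDR 0.018), and E6 replicate 2 before adhesion was under WT replicate 1 after it. *Isg15* itself had 12 and 1 counts in WT before adhesion and 25 and 9 in E6, which overlap. After adhesion it had 5 and 15 counts in WT and 28 and 29 in E6, and its averaged log2 FC of 1.45 (SE 0.58) had an FDR of 0.123.

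The PARP proteins of this list add or bind ADP-ribose in the antiviral response, and PARP9 works as a pair with the ubiquitin ligase DTX3L. *Parp14* had 13.6 and 10.2 CPM in WT and 26.2 and 24.4 CPM in E6 after adhesion (log2 FC 1.09, SE 0.23, FDR 0.0295), and 6.5 and 6.19 against 13.6 and 9.0 CPM before it. *Parp9* had 31.9 and 27.3 CPM in WT and 47.4 and 46.4 CPM in E6 after adhesion (log2 FC 0.67, SE 0.13, FDR 0.0239), and 25.8 and 23.5 against 28.8 and 27.4 CPM before it. *Parp9* and *Dtx3l* share 458 exon bases on opposite strands, and the strand setting of the counting is not stated. *Dtx3l* had a log2 FC of 0.09 (SE 0.20, FDR 0.796) after adhesion, with 55.0 and 34.9 CPM in WT and 47.1 and 48.4 CPM in E6.

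The GBP and IRG GTPases act on membranes around intracellular pathogens. *Igtp* had 1.06 and 1.21 CPM in WT and 2.81 and 3.76 CPM in E6 after adhesion (log2 FC 1.52, SE 0.30, FDR 0.026), and 0.547 and 0.516 against 1.53 and 1.12 CPM before it (FDR 0.096). It shares 162 exon bases with *Irgm2* on the same strand. *Gbp3* had 0 and 1 counts in WT and 14 and 7 in E6 before adhesion, and 10 and 5 against 24 and 15 after it. It was DE only in the average (FDR 0.0342), and the ratio before adhesion was 19.1 (exact 95% counting interval 3.07 to 788). *Irgm1* did not differ beyond its spread, at 24.8 to 29.2 CPM in WT and 23.7 to 35.1 CPM in E6.

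Of the other members, *Rtp4*, which encodes a chaperone of membrane receptors, had 0.121 and 0.221 CPM in WT and 1.6 and 0.857 CPM in E6 before adhesion. After adhesion it had 0.639 and 0.532 CPM in WT and 5.45 and 4.30 CPM in E6. E6 was above WT in every library, with a log2 FC of 2.79 (SE 0.56, FDR 0.0344) before and 3.06 (SE 0.39, FDR 0.00703) after adhesion. *Rtp4* shares 296 exon bases with *Gm45338* on the same strand. *Ifi27l2a* had 0 counts in both WT libraries before adhesion and 10 and 16 in E6, at least 7.87-fold higher against a floor of 3 counts over the group (FDR 0.0211). After adhesion it had 5 and 4 counts in WT and 14 and 14 in E6 (FDR 0.0899). *Ifi44* had 0.364 and 0.442 CPM in WT and 4.93 and 2.04 CPM in E6 before adhesion, and 4.54 and 1.11 against 6.35 and 6.15 CPM after it. It was DE only in the average (log2 FC 2.14, SE 0.52, FDR 0.0271), and WT replicate 1 after adhesion lay between the E6 libraries before adhesion. *Xaf1*, linked to cell death, had 1.03 and 0.295 CPM in WT and 3.19 and 1.07 CPM in E6 before adhesion, and 1.77 and 1.65 against 4.85 and 5.02 CPM after it. *Samd9l*, linked to a block of translation, had 39.8 and 38.8 CPM in WT and 72.5 and 62.7 CPM in E6 before adhesion, and 81.0 and 42.7 against 102 and 93.7 CPM after it. In both genes E6 lay above WT within each condition, but an E6 library before adhesion lay under a WT library after it. They were DE only in the average, with log2 FCs of 1.56 (SE 0.42, FDR 0.0372) for *Xaf1* and 0.72 (SE 0.19, FDR 0.0342) for *Samd9l*.

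**Figure D4:**
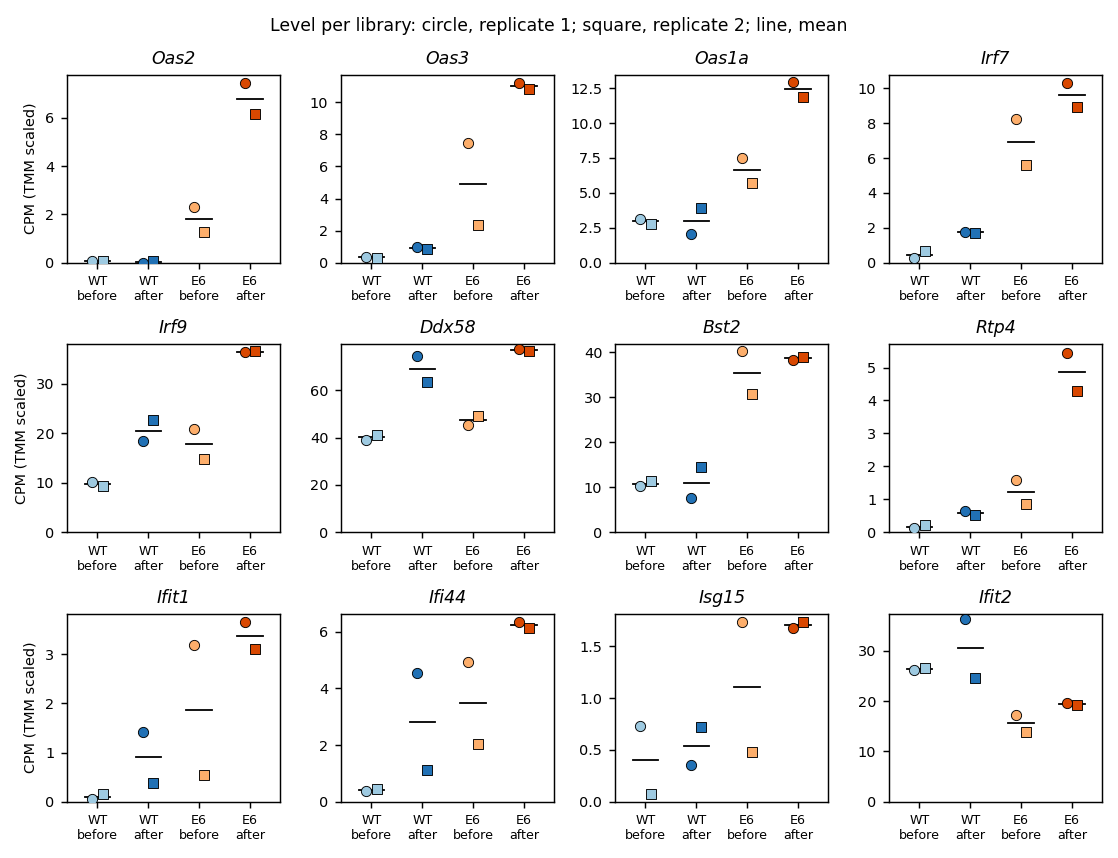
CPM (vertical axes from 0) of 12 members in each library, by condition, with circles for replicate 1, squares for replicate 2 and lines for the mean of 2. *Oas2*, *Irf7*, *Bst2* and *Rtp4* are higher in both E6 conditions, *Irf9* and *Ddx58* have their higher points after adhesion in both cell types, the replicates of *Ifit1* and *Ifi44* differ widely within E6 before and WT after adhesion, and *Ifit2* is lower in E6.

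The number of members DE in no contrast was 19. They were *Oasl2*, *Irf1*, *Stat2*, *Ifit3*, *Isg15*, *Ifih1*, *Dhx58*, *Parp12*, *Dtx3l*, *Ifi35*, *Ifitm3*, *Eif2ak2*, *Trim25*, *Trim30a*, *Herc6*, *Zbp1*, *Gbp2*, *Irgm1* and *Tor3a*. *Eif2ak2*, the kinase PKR that stops translation, had 663 to 1539 counts per library and *Trim25* 1121 to 1872, and yet neither was DE. Their averaged log2 FCs were 0.22 (SE 0.16) and 0.06 (SE 0.08). The levels of *Parp12* were 19.9 to 28.6 CPM in WT and 20.1 to 34.4 CPM in E6, and those of *Ifih1* 18.9 to 30.3 and 23.7 to 35.4 CPM. *Tor3a* had 28.4 to 39.7 CPM in WT and 26.0 to 34.2 CPM in E6, *Herc6* 5.95 to 9.22 and 7.91 to 12.2 CPM, *Ifi35* 4.19 to 11.7 and 6.96 to 10.8 CPM, and *Trim30a* 0.442 to 1.70 and 0.803 to 3.46 CPM. Taken over both conditions together, the WT and E6 libraries of each of these 6 overlapped. Within a condition, E6 lay above WT in *Ifih1* and *Herc6* both before and after adhesion, and in *Parp12* and *Trim30a* after it. In *Tor3a* E6 lay below WT before adhesion. A member that did not pass the test is not shown to be equal in the cell types.

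After mTEC-thymocyte adhesion 5 members passed the test as higher in E6 and 0 in WT. In WT, 0 of 44 members were DE by edgeR's test, as were 0% of all tested mRNAs. The smallest FDR was 0.216, 20 members and 873 of all mRNAs had an unadjusted p under 0.05, and DESeq2 called 3 members, *Ddx58*, *Irf9* and *Stat2*. In E6, 5 members were DE, all higher, where 2.00% of all tested mRNAs were DE, 1.93% higher and 0.0771% lower. They were *Oas2*, *Irf9*, *Ddx58*, *Rtp4* and *Parp9*. The median log2 FC of the 44 members was 0.69 in WT and 0.67 in E6, and that of all tested mRNAs was 0.02 and -0.02. The log2 FC was above 0 in 37 members in WT and in all 44 in E6, as it was in 52.8% and 44.6% of all tested mRNAs. Both libraries after adhesion lay above both before it in 28 members in WT and 37 in E6, as they did in 16.6% and 23.6% of all tested mRNAs. The summed level of thymocyte markers was 29.8-fold higher after adhesion in WT and 163-fold higher in E6, and its part in these values was not tested.

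**Figure D5:**
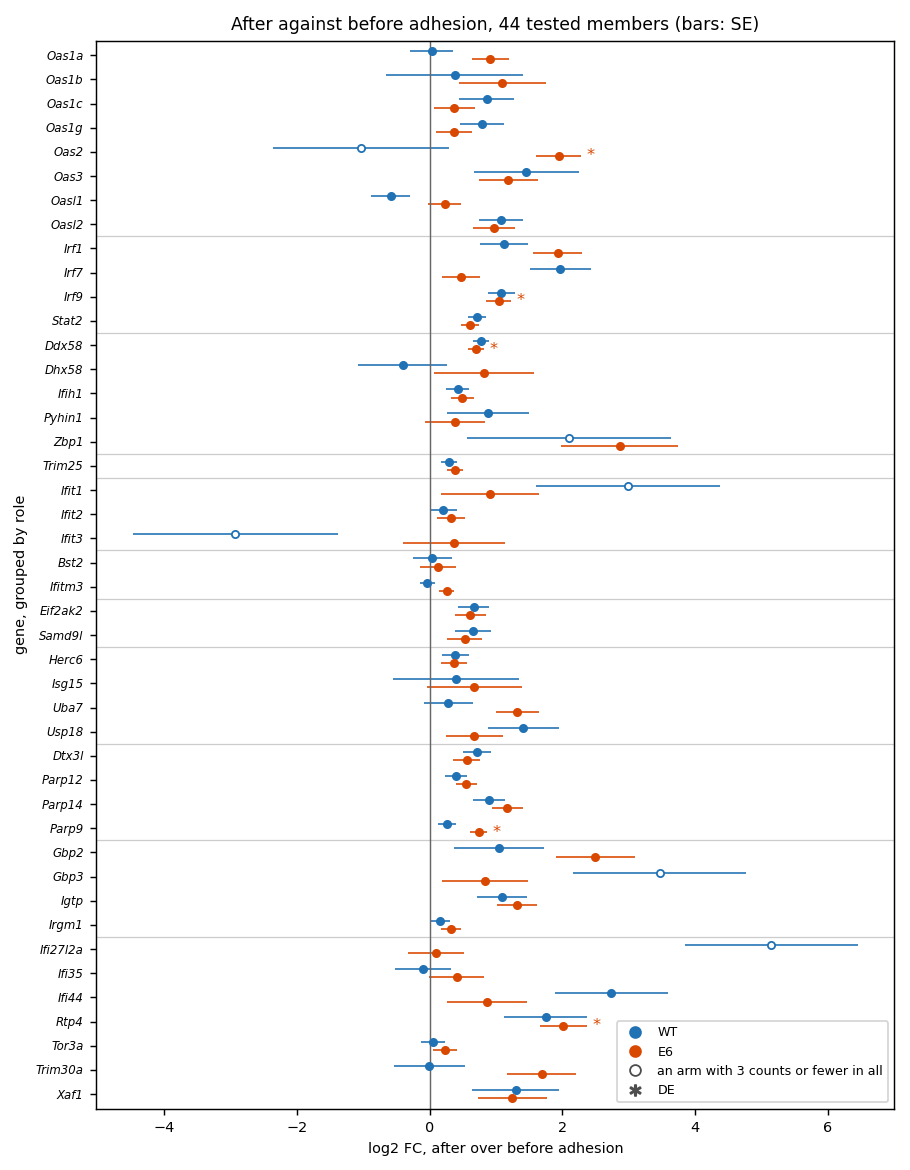
Log2 FC of after over before adhesion (horizontal axis) for the 44 tested members (vertical axis, grouped by role), in WT (blue) and E6 (orange), with bars of 1 SE; stars mark DE and open circles an arm with 3 counts or fewer in all. All 44 values in E6 are above 0, as are 44.6% of those of all tested mRNAs, and the 5 stars stand at E6 values only.

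*Ddx58*, the RIG-I sensor, had 39.0 and 41.1 CPM before and 74.3 and 63.3 CPM after adhesion in WT. In E6 it had 45.4 and 49.1 CPM before and 77.6 and 76.5 CPM after adhesion. Its libraries after adhesion lay above those before it in both cell types, with log2 FCs of 0.78 (SE 0.12, FDR 0.216) in WT and 0.70 (SE 0.12, FDR 0.0341) in E6. *Irf9* rose in E6 with a log2 FC of 1.04 (SE 0.19, FDR 0.0463) and had 1.08 (SE 0.20, FDR 0.244) in WT. *Parp9* rose in E6 with a log2 FC of 0.74 (SE 0.13, FDR 0.0375), and its value in WT was 0.26 (SE 0.13, FDR 0.62). *Oas2* and *Rtp4*, whose values stand above, rose in E6 with log2 FCs of 1.94 (SE 0.34, FDR 0.038) and 2.01 (SE 0.35, FDR 0.038).

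*Irf1*, a fast responder to interferon gamma, had 9.59 and 11.8 CPM before and 16.7 and 29.8 CPM after adhesion in WT, and 7.98 and 6.91 before and 19.9 and 36.6 CPM after it in E6. Its log2 FC of 1.93 (SE 0.37) in E6 had an FDR of 0.052. *Gbp2*, a GTPase strongly induced by interferon gamma, had 4 and 4 counts before and 27 and 20 after adhesion in E6 (log2 FC 2.5, SE 0.59, FDR 0.122), and 7 and 1 before and 9 and 10 after it in WT. *Bst2*, which was higher in E6, had log2 FCs of 0.04 (SE 0.29) in WT and 0.13 (SE 0.27) in E6 with adhesion.

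The numbers for adhesion also depended on single libraries. In WT the number of DE members was 5 without replicate 1 and 20 without replicate 2 of WT after adhesion, and of these 20, 18 were higher. The shares of all mRNAs DE in those fits were 1.74% and 29.8%, and the fits have 1 WT library after adhesion, which is assumed to vary like the other conditions. In E6 the number was 21 without replicate 1 and 19 without replicate 2 of WT after adhesion, where 5.41% and 5.27% of all mRNAs were DE against 2.00% with 8 libraries. It was 20 in the fit to the 4 E6 libraries alone (4.71% of all mRNAs). Without replicate 1 or 2 of WT before adhesion it was 0 (1.13% and 1.12%), and without any of the 4 E6 libraries 0 members and 0% of all mRNAs were DE. Without replicate 1 of WT after adhesion all 5 of its DE members in WT (*Ddx58*, *Irf1*, *Irf7*, *Irf9* and *Stat2*) were higher.

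The difference of the adhesion effects, E6 minus WT, was tested for each mRNA. Thymocyte markers rose 29.8-fold with adhesion in WT and 163-fold in E6, and their part in this difference was not tested. In this test 0 of 44 members and 0% of all mRNAs were DE. The smallest FDR was 0.988, 3 members (*Ifi27l2a*, *Irf7* and *Parp9*) and 297 of all mRNAs had an unadjusted p under 0.05, and DESeq2 called 0 members. The difference was -1.49 on the log2 scale (SE 0.55) for *Irf7* and 0.48 (SE 0.18) for *Parp9*, with FDRs of 0.988. It was -5.05 (SE 1.41) for *Ifi27l2a*, which had 0 counts in WT before adhesion, so that this value depends on the prior count of the fit. The median difference was 0.11 for the members and -0.01 for all tested mRNAs. Without replicate 1 of WT after adhesion 1 member was DE, and without replicate 2 of that condition 11 were, where 1.22% and 25.6% of all mRNAs were DE.

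Other genes of the pathway were examined from lists of ligands, receptors, signalling proteins and further interferon-stimulated genes. All 10 interferon genes examined (*Ifna1*, *Ifna2*, *Ifna4*, *Ifna5*, *Ifnb1*, *Ifne*, *Ifnk*, *Ifng*, *Ifnl2* and *Ifnl3*) had between 0 and 2 counts in each library, and *Ifnb1* had 0 in all 8. A difference in the ligands was therefore not detectable at this depth. The receptor genes *Ifnar1*, *Ifnar2*, *Ifngr1*, *Ifngr2*, *Ifnlr1* and *Il10rb* were all tested, and 0 of 6 were DE between cell types. *Ifngr2*, a chain of the interferon gamma receptor, rose with adhesion in E6 (log2 FC 0.89, SE 0.17, FDR 0.0461) and had 0.37 (SE 0.17, FDR 0.62) in WT.

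Of the 24 signalling genes 21 were tested. The kinase genes *Jak1*, *Jak2* and *Tyk2* had log2 FCs of -0.02, -0.09 and -0.00 before adhesion. *Ikbke*, a kinase that activates IRF3 and IRF7, was higher in E6 than in WT after adhesion (1022 and 1004 counts against 343 and 738, log2 FC 1.01, SE 0.19, FDR 0.0213). With adhesion *Ikbke* rose in E6 (log2 FC 1.46, SE 0.19, FDR 0.0132) and had 0.31 (SE 0.19, FDR 0.62) in WT, where 0 of the 21 were DE.

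Of 86 further interferon-stimulated genes 66 were tested. Before adhesion 6 were DE and higher in E6 and 2, *Casp12* and *Ifitm2*, were lower, against 2.45% and 2.56% of all tested mRNAs. After adhesion 14 were higher and the same 2 were lower, against 4.85% and 4.06%. This list too was chosen with earlier results of these data known, so nothing is read from those shares. The 3 largest FCs among the higher ones before adhesion were those of *Slfn2*, *Apol9a* and *Lgals3bp*. *Slfn2* had 0 and 0 counts in WT and 21 and 14 in E6, *Apol9a* 0 and 1 against 44 and 28, and *Lgals3bp* 78 and 48 against 675 and 672 (log2 FC 3.31, SE 0.20, FDR 0.0011). *Ifitm2*, a neighbour of *Ifitm3*, had a log2 FC of -0.61 before adhesion (SE 0.11, FDR 0.0209). With adhesion 7 of the 66 were DE and higher in E6, and 0 in WT, against 1.93% and 0% of all tested mRNAs. The 3 largest were *Gbp6*, *Gbp4* and *Epsti1*, which had 0 to 3 counts in the E6 libraries before adhesion and 22 to 129 after it. In WT *Gbp4* had 0 and 0 counts before and 9 and 7 after adhesion, and *Epsti1* 6 and 12 before and 12 and 32 after. *Gbp6* had 1 and 3 before and 4 and 2 after adhesion in WT. The part of thymocytes and other cells in these values was not tested.

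The replicates of some conditions stood apart in the members. In E6 before adhesion, replicate 1, with 24 h of culture, was above replicate 2, with 12 h, in 39 of 44 members, with a median log2 difference of 0.33 against -0.00 over all tested mRNAs (of which 47.5% were higher in replicate 1). The differences were 2.20 for *Ifit1*, 1.70 for *Ifit3*, 1.59 for *Oas3*, 1.5 for *Isg15*, 1.42 for *Xaf1* and 1.21 for *Usp18*, on the scale of log2(CPM + 0.2). In E6 after adhesion, with the same culture times, replicate 1 was above replicate 2 in 31 of 44 members with a median of 0.05. It was higher in 54.2% of all tested mRNAs. In WT after adhesion it was replicate 1, with 12 h of culture and the GC trend, that was higher in *Ifi44* (1.85), *Ifit1* (1.46), *Pyhin1* (1.36) and *Oasl2* (0.95), and lower in *Oas1b* (-1.87), *Ifi35* (-1.44) and *Bst2* (-0.92). In WT before adhesion, where both libraries had 12 h of culture, the median difference was 0.00. There replicate 1 was above in 22 of 44 members and in 51.0% of all tested mRNAs. With 2 libraries per condition, culture time and the replicates cannot be told apart within a condition.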

How the data were processed

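Per the labels and the methods, paired-end RNA-Seq reads of the 8 libraries were aligned to mm10 with STAR (2.5.0a in the submitters' processing notes), and the authors deposited HTSeq counts per gene, which are raw. The annotation, the strand setting and the overlap mode of the counting are not given in the sources used here. In 1 library 18 gene symbols that had turned into dates were restored from the gene order. Rows for reads on no gene, on several genes or aligned more than once, 21.2% to 33.3% of alignments, were left out of library sizes.

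Counts were fitted with edgeR 4.0.16 in R 4.3.3, with filterByExpr, TMM factors and a quasi-likelihood model of 1 mean per condition over 8 libraries. The FDR limit was 0.05 and the FC limit 1.5. The SE is the log2 FC over the root of the F statistic, and is rough where counts are low. CPM used the TMM library sizes. For arms with 1 to 3 counts the ratio has an exact interval at 95%. Positions come from GENCODE vM21 (GRCm38) and promoters from RefSeq (GRCm38.p6). Levels per length use the union of exons. The members, the roles, the lists of pathway genes and markers and the tests were chosen with earlier results of these data known. Of 25 thymocyte markers chosen, 15 were used here. Values per library were given for members DE in at least 1 contrast, and the others by counts, ranges or log2 FCs, with a few given in more detail after their values were seen.

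Alternatives were RLE size factors, DESeq2 1.42.0 (the tool of the study), no filter on low counts, the replicate number as a replicate block, no FC limit, a GC correction (lowess span 0.3) alone or with the block, only the 4 libraries compared, and each library left out. Culture time as a term was added after seeing the data. The procedure was tested on simulated counts. Some pathway genes are not reported here. Python 3.11.15 with matplotlib 3.10.9 drew the figures.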

Additional observations from a re-analysis of the deposited data

How the results depend on the processing

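No named log2 FC of a DE member changed sign. Of 809 values under the alternatives 567 stayed DE and 242 did not, and 12 of the 52 were DE under all. All 12 were averages over adhesion, for which the fit to only the 4 libraries compared was not run. Every result before adhesion, after it, or for adhesion in E6 lost its DE status under at least 1 alternative. The number of DE members before adhesion, 9 in the report, was 16 with DESeq2, 15 with the GC correction, alone or with the replicate block, 5 with the replicate block alone, 20 with only the 4 libraries compared and 4 with culture time as a term (chosen after seeing the data), and 0 to 23 with each library left out. After adhesion, 15 in the report, it was 0 with only the 4 libraries compared and 1 to 29 with each library left out. Averaged over adhesion, 23 in the report, it was 12 to 26 with each library left out. For adhesion in WT, 0 in the report, it was 3 with DESeq2 and 0 to 20 with each library left out. For adhesion in E6, 5 in the report, it was 8 with DESeq2, 2 with the replicate block, 20 with only the 4 libraries compared, 2 with culture time as a term and 0 to 21 with each library left out. For the difference of the adhesion effects it was 0 to 11 with each library left out. The causes were not tested. Fits with fewer libraries have fewer degrees of freedom, and among these fits some numbers rose and others fell. All other alternatives kept these numbers within 1.5 times. The replicate numbers are only shared names: deviations of same-numbered libraries correlated at -0.08 to 0.22 across 9768 genes, which are not independent. With the block, 10 members were DE after adhesion, 22 on average, 0 for adhesion in WT and 0 for the difference. For adhesion in E6, 0 of the 5 members in the report were among the 2 that were DE with the block. At this depth members with few counts, such as *Mx1*, *Mx2*, *Rsad2* and *Cmpk2*, could not be compared.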

Other observations

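*Cd74*, the MHC class II invariant chain, which interferon gamma is known to induce, had 1 and 0 counts in WT before adhesion against 32 and 43 in E6, and 10 and 7 against 94 and 108 after it. *H2-Aa*, an MHC class II chain, had 0 counts in all libraries before adhesion, 2 and 1 in WT and 19 and 19 in E6 after it. Both genes are on the list of macrophage, dendritic cell and B cell markers, and *H2-Aa* is also on the epithelial list. The part of such cells in the values after adhesion was not tested. *Relb*, an NF-κB subunit needed for mTEC development, had 43 and 50 counts in WT and 140 and 134 in E6 before adhesion, and 83 and 266 against 347 and 349 after it.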
